A study of Mus musculus with 2 samples.

Results

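The transcription factors described here are 10 genes long used to mark the mesenchyme of the gut, namely Foxf1, Foxf2, Foxl1, Nkx2-3, Hlx, Hand1, Hand2, Barx1, Isl1 and Tcf21. They were chosen by name from the 28692 features of each library, and each was found as 1 feature with a symbol of its own. Single-cell RNA-seq had been performed on mesenchymal stromal cells of embryonic mouse intestine that carried a yellow fluorescent protein (strain EYFP on C57BL/6), after 4 weeks of growth as grafts beneath the kidney capsule, with wild type adults as hosts. The large intestinal (LI) grafts gave 1 library, labelled as colonic lamina propria, and the small intestinal (SI) grafts gave 1, labelled as small intestinal lamina propria. In both, live YFP+ cells had been sorted for Itgb1 and against the blood markers CD45 and Ter119, the endothelial marker CD31, the epithelial marker EpCAM, and BP3 and L1CAM. Colonic grafts had been pooled before sorting, so a library is 1 sample, and whether the 3′ or the 5′ kit was used for it was not given. A difference between LI and SI here is therefore a difference between 2 libraries, with no test, and gut segment, kit and pool cannot be told apart in it.

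After removal of barcodes with under 500 genes or over 10% mitochondrial counts, 9873 of 11568 barcodes were kept in the LI library and 7910 of 9631 in the SI library, with a median of 5288 and 5682 unique molecular identifiers (UMIs, counted molecules) per cell. Cells were placed in classes by how many markers of fixed lists had at least 1 UMI, and 9472 LI cells (95.9%) and 7532 SI cells (95.2%) met a stromal gate. The LI and SI libraries held 435 and 362 PDGFRAhi fibroblasts (FB), 821 and 385 Pi16 FB, 955 and 1479 Grem1 FB, 1599 and 877 Fgfr2 FB, and 4258 and 2708 other FB that met no subset gate or several equally. There were 565 and 958 pericytes, 390 and 432 smooth muscle cells (SMC), 351 and 57 interstitial cells of Cajal (ICC), the pacemaker cells of the gut wall, and 70 and 251 cells that met both mural gates, called mural double. Only 28 and 23 mesothelial cells were found, so these are described and not compared. The names stand for cells that are like these types by their markers. A gate is a cut on a range, and it was set after the distributions had been seen. In the LI library 186 of the 435 PDGFRAhi FB and 111 of the 351 ICC sat exactly at their gate, and 314 and 235 cells were 1 marker below it. In the SI library 131 of the 362 PDGFRAhi FB and 17 of the 57 ICC sat at the gate, and 153 and 294 cells were 1 marker below it. Kit was at 1173 CPM (UMIs of a gene scaled to the same total of UMIs in every class) in LI and 816 CPM in SI ICC and at 12.3 CPM or less in the other LI classes, and Msln was at 793 and 226 CPM in mesothelial cells. Pdgfra, Pi16, Rgs5 and Myh11 were highest in PDGFRAhi FB, Pi16 FB, pericytes and SMC, in that order, in both libraries, while Adamdec1 and Grem1 led in their own class in 1 library each. These genes, Kit and Msln are markers of the gates themselves, so such leads are in part set by the gates. Actg2, another SMC gate marker, led in SMC in SI, but in LI mural double cells had 1934 CPM against 1846 CPM in SMC. Adamdec1, a marker of Fgfr2 FB, was at 10007 CPM in LI PDGFRAhi FB against 6377 CPM in LI Fgfr2 FB, and the SMC class carried it at 3564 and 2832 CPM. Grem1 was at 1191 CPM in SI SMC and 977 CPM in SI ICC, where SI Grem1 FB had 1143 CPM. The libraries had 26 barcodes in common, 14 of them among kept cells.

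Foxf1, Foxf2 and Foxl1 are forkhead factors of gut mesenchyme, which respond to hedgehog signals from the epithelium, and Foxl1 is known as a marker of the telocyte-like cells under the epithelium. Nkx2-3, Hlx, Barx1 and Isl1 are homeodomain factors: Nkx2-3 is needed for villus mesenchyme and for homing receptors of gut and spleen vessels, Hlx for growth of the early gut, Barx1 for stomach mesenchyme, and Isl1 for the pylorus and for neurons. Hand1, Hand2 and Tcf21 are basic helix-loop-helix factors, of which the Hand genes act in heart, gut muscle and neural crest and Tcf21 in visceral fibroblast precursors. The question put to the data was how each factor is distributed over the stromal classes of the grafts, and whether that distribution is alike in the LI and SI grafts.

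On GRCm38 (mm10), in the GENCODE vM21 annotation, Foxf1 lies at chr8:121084386-121088144 and Foxl1 at chr8:121127940-121130644, both on the plus strand and with 43.6 kb between their starts. Foxf2 lies at chr13:31625816-31631403 (plus), Nkx2-3 at chr19:43612325-43615892 (plus), Hlx at chr1:184727140-184732619 (minus), Hand1 at chr11:57828705-57832818 (minus), Hand2 at chr8:57320983-57324633 (plus), Barx1 at chr13:48662998-48666507 (plus), Isl1 at chr13:116298281-116309689 (minus) and Tcf21 at chr10:22817281-22820174 (minus). All 10 are annotated as protein coding, and Foxl1 has 1 exon. RefSeq promoter windows (GRCm38.p6, 250 bases before to 50 after the start) were matched for 7 of the 10, without Foxf1, Foxl1 and Hand1. The windows of Foxf2, Nkx2-3, Hand2 and Hlx are shown because levels of Foxf2 and Nkx2-3, and of Hand2 and Hlx, varied together over the classes below. They are chr13:31625566-31625865 (plus), chr19:43612075-43612374 (plus), chr8:57320733-57321032 (plus) and chr1:184732444-184732743 (minus). Each is written 5′ to 3′ on the strand of its gene, and capitals mark the TATA box (TATAAA), the CCAAT box (CCAAT), the GC box (GGGCGG) and TGGGTGGTC (the consensus of the hedgehog effector Gli) on either strand.
Foxf2 promoter: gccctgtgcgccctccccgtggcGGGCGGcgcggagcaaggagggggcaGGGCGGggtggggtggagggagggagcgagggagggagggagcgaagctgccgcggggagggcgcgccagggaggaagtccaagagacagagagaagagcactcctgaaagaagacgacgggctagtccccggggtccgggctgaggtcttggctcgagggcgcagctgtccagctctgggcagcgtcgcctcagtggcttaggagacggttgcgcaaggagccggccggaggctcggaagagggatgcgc
Nkx2-3 promoter: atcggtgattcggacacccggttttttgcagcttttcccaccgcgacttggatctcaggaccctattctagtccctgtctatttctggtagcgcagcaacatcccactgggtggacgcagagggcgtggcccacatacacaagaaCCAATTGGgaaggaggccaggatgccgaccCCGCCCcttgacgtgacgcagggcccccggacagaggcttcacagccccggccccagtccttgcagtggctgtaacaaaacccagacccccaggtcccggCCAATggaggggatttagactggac
Hand2 promoter: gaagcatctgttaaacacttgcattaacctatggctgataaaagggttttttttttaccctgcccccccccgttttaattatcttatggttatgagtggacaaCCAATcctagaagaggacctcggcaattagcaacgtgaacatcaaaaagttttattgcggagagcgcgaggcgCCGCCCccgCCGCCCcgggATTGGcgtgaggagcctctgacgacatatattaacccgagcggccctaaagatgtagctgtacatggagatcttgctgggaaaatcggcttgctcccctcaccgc
Hlx promoter: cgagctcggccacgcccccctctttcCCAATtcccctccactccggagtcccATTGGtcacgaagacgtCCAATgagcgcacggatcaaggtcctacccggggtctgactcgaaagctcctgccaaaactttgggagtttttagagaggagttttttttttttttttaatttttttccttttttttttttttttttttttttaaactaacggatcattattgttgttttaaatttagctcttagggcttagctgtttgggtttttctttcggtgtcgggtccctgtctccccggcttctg
The Foxf2 window was 71.3% G or C with 2 matches of GGGCGG, and the Nkx2-3 window was 60% G or C with 3 of CCAAT, a pair of them overlapping on opposite strands, and 1 of GGGCGG. Hand2 had 2 matches of CCAAT and 2 of GGGCGG in a window of 50.3% G or C, and Hlx had 3 of CCAAT and none of GGGCGG at 44.3%. CCAAT was found in 37.4% of the 32851 promoter windows of the same length, GGGCGG in 35.7%, TATAAA in 13.6% and TGGGTGGTC in 0.253%. Neither TATAAA nor TGGGTGGTC was in any of the 7 windows. A match is a run of letters and not a site.

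Levels were summed over all cells of a class in 1 library and are given as pooled CPM, with exact Poisson 95% intervals that cover counting error only. Log2 ratios of LI over SI had 1 CPM added to each level. Taken over all FB, 6 of the 10 genes reached 10 CPM in at least 1 library (Foxf1, Foxf2, Nkx2-3, Hlx, Hand2 and Tcf21). Of these 6, 2 were higher in LI and 4 in SI, and 0 were past a log2 of 1 in either direction, where 1.94% of the 8616 genes at that level were past it towards LI and 1.59% towards SI. The median of all 8616 was -0.01. Tcf21 was at 386 CPM (381 to 392) in LI and 326 CPM (320 to 332) in SI FB, and Nkx2-3 was at 167 CPM (163 to 171) and 310 CPM (304 to 315), a log2 ratio of -0.89 (-0.93 to -0.85). Foxf1 stood at 129.96 and 143 CPM, Hand2 at 22.9 and 27.3 CPM, Hlx at 22.0 and 21.5 CPM and Foxf2 at 20.2 and 21.2 CPM, and the intervals of the ratio held 0 for Hlx and Foxf2. With female cells only, or with the mean of per-cell CPM in place of pooled CPM, the split turned to 4 higher in LI and 2 in SI. These ratios pool both sexes, and within a sex some were past a log2 of 1. In female cells Hand2 was, at -1.15, where 1.31% of 8675 genes were past it towards SI and 1.63% towards LI. In male cells Foxf2 (-1.14), Nkx2-3 (-1.29) and Tcf21 (-1.01) were past it towards SI, where 7.65% of 8662 genes were. Hand2 (1.28) and Hand1 (3.26) were past it towards LI, where 5.30% were. Hand1 reached 10 CPM in male LI cells only, at 21.1 CPM against 1.31 CPM in male SI cells. Among the 4 genes under 10 CPM with both sexes pooled, Isl1 was at 5.58 CPM in LI and 0.318 CPM in SI FB, and Hand1 at 7.04 and 1.46 CPM. The largest pooled ratios were thus found among genes of low pooled level.

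**Figure D1:**
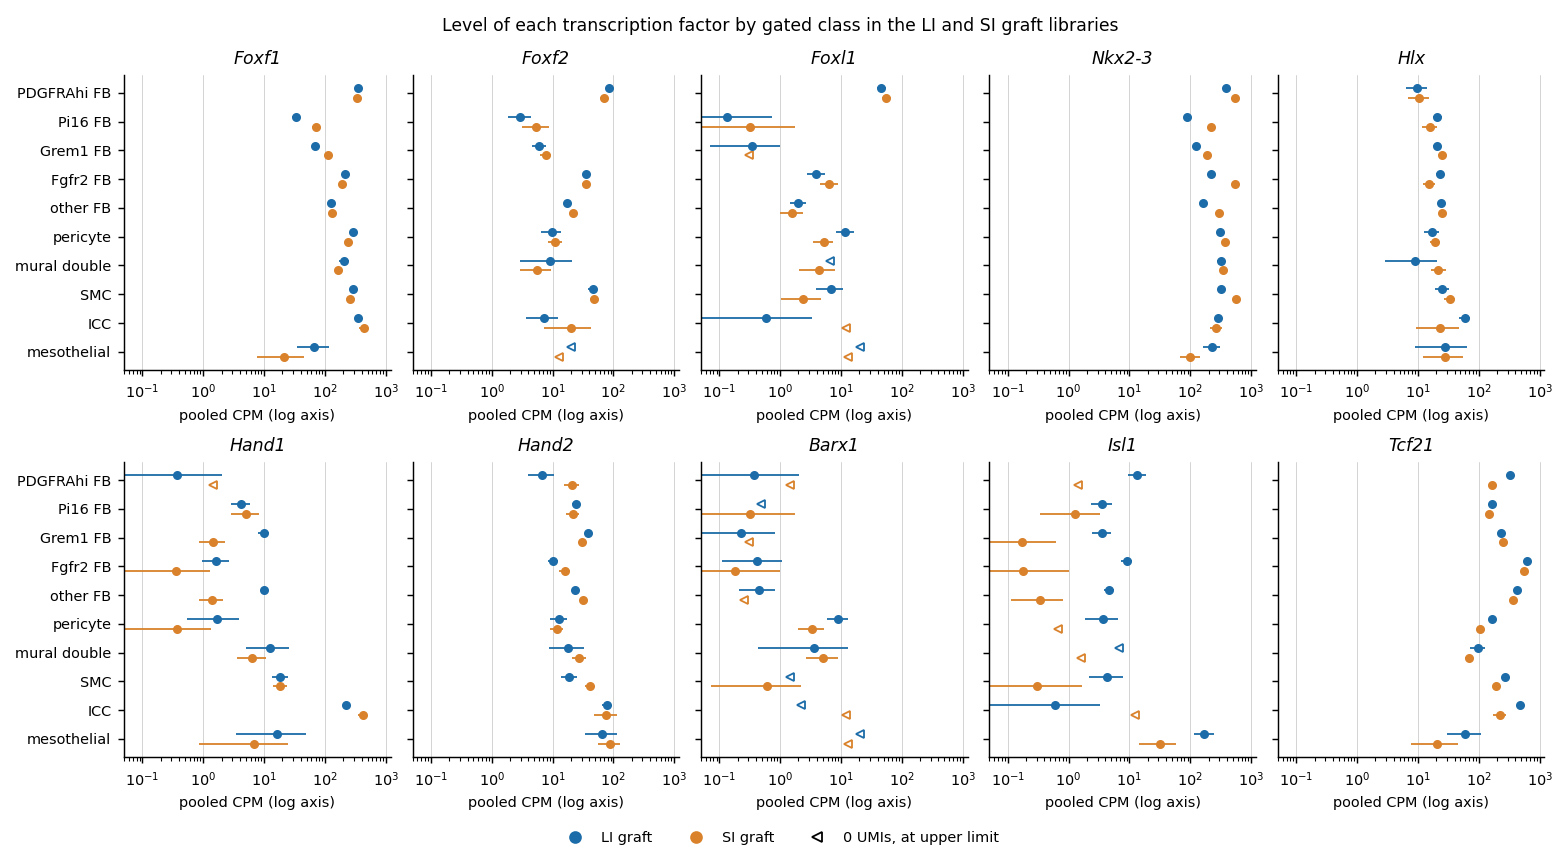
Pooled CPM of the 10 transcription factors (log axis, 1 panel each) in 10 gated classes of the LI graft (blue) and SI graft (orange) libraries. Points are levels, lines are exact Poisson 95% intervals cut at the left edge, and open triangles mark 0 UMIs at the upper limit; Foxl1 peaks in PDGFRAhi FB (46.3 and 55.5 CPM) and Hand1 in ICC (223 and 415 CPM), while Hlx stays between 8.97 and 58.8 CPM over the 9 larger classes.

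Of the 10 genes, 5 had their highest level in the same class in both libraries, over the 9 classes with at least 50 cells in each. These were Foxf2 and Foxl1 in PDGFRAhi FB, Hand1 and Hand2 in ICC, and Tcf21 in Fgfr2 FB. All 5 were among the 9 members with at least 10 CPM in a class, and of the 10845 genes at that level 44.5% had the same leading class in both libraries, so the share among the factors was near that of all genes. Set against the other stromal cells of its own library, a level was raised by a log2 of at least 1 in both libraries for 3 of the 10 genes in PDGFRAhi FB (Foxf1, Foxf2 and Foxl1), where 3.0% of 9519 genes were. The same was seen for 3 of the 10 in ICC (Foxf1, Hand1 and Hand2), where 5.46% of 9926 genes were, and for 1 of the 10 in pericytes (Barx1), where 5.96% of 9417 genes with at least 10 CPM were, a level that Barx1 did not reach.

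Foxl1 had the sharpest pattern of the forkhead genes. It was at 46.3 CPM (38.5 to 55.1) in LI and 55.5 CPM (46.8 to 65.4) in SI PDGFRAhi FB, 18.7-fold and 24.5-fold above the other stromal cells. Its next levels were 11.7 CPM (8.14 to 16.3) in pericytes of LI and 6.44 CPM (4.51 to 8.91) in Fgfr2 FB of SI. Grem1 FB had 3 UMIs in LI and 0 in SI, and Pi16 FB had 1 in each. PDGFRAhi FB thus stood apart from every other class in both libraries, and the intervals of the 2 libraries overlapped there (log2 ratio -0.26, -0.61 to 0.09). In pericytes Foxl1 was higher in LI than in SI, 11.7 against 5.17 CPM, with a log2 ratio of 1.04 (0.37 to 1.70). Over the SI classes from Fgfr2 FB downwards, each level overlapped the next.

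Foxf2 followed the same class with a wider spread. Its level was 85.5 CPM (74.8 to 97.2) in LI and 69.4 CPM (59.6 to 80.4) in SI PDGFRAhi FB, then 45.5 and 48.2 CPM in SMC and 35.6 and 35.1 CPM in Fgfr2 FB. It was lowest in Pi16 FB, at 2.93 CPM (1.84 to 4.44) and 5.36 CPM (3.12 to 8.57), a range of 29.2-fold over classes in LI and 13.0-fold in SI. Pericytes held 9.69 and 11.1 CPM, and ICC held 7.13 CPM in LI and 19.7 CPM (7.24 to 43.0) in the 57 ICC of SI. In 7 of 9 classes the interval of the LI over SI ratio of Foxf2 held 0. In male fibroblasts alone Foxf2 was at 7.40 CPM in LI and 17.5 CPM in SI, a log2 ratio of -1.14 (-1.55 to -0.74).

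Foxf1 was high in more classes than its paralogue. PDGFRAhi FB had 348 CPM (326 to 371) in LI and 341 CPM (318 to 364) in SI, and ICC had 347 CPM (320 to 377) and 434 CPM (363 to 515), with overlap between these classes in both libraries. Pericytes followed at 291 and 235 CPM and SMC at 288 and 256 CPM, and these overlapped each other too. Lower levels were found in Fgfr2 FB (213 and 189 CPM), other FB (124 and 132 CPM) and Grem1 FB (68.0 and 110.2 CPM), and the lowest in Pi16 FB, at 33.2 CPM (29.2 to 37.6) in LI and 71.2 CPM (62.2 to 81.1) in SI. LI was below SI by a log2 of -1.08 (-1.34 to -0.82) in Pi16 FB and -0.69 (-0.83 to -0.55) in Grem1 FB, and above it by 0.30 (0.18 to 0.43) in pericytes. The direction between the libraries thus differed by class, with 3 classes higher in LI, 3 higher in SI and 3 with an interval that held 0.

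The share of Foxf2 in the summed UMIs of Foxf1 and Foxf2 gave the balance of the paralogues free of class depth. It was 19.7% (17.5 to 22.1) in LI and 16.9% (14.7 to 19.3) in SI PDGFRAhi FB, and Fgfr2 FB had 14.3% and 15.7% and SMC 13.7% and 15.8%. It was 3.23% (2.17 to 4.60) and 4.50% (3.45 to 5.76) in pericytes and 2.01% (1.04 to 3.48) and 4.35% (1.61 to 9.22) in ICC. Pericytes had Foxf2 under the other stromal cells by a log2 of -1.03 in LI and -0.94 in SI. ICC had it under them by -1.41 in LI, and at a like level in SI (-0.09, -1.42 to 1.002) from 6 UMIs. Gene length and capture enter the share itself but are the same in each class of 1 library.

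Nkx2-3 was found in all 9 classes of both libraries, over a range of 4.32-fold in LI and 3.06-fold in SI. In LI its levels were 388 CPM (365 to 412) in PDGFRAhi FB, 323 CPM in mural double cells, 319 CPM in SMC, 305 CPM in pericytes and 287 CPM (262 to 314) in ICC. Each of these overlapped the next in order. In SI it was at 569 CPM (544 to 595) in SMC, 553 CPM (525 to 582) in PDGFRAhi FB and 539 CPM (520 to 559) in Fgfr2 FB, which also overlapped in that order. The lowest LI level was 89.9 CPM (83.3 to 97.0) in Pi16 FB and the lowest SI level was 186 CPM (178 to 194) in Grem1 FB, and these were the low ends of that range. SI was higher with an interval clear of 0 in 7 of 9 classes, by -1.29 (-1.37 to -1.21) in Fgfr2 FB, -1.28 (-1.44 to -1.13) in Pi16 FB, -0.83 (-0.96 to -0.72) in SMC and -0.29 (-0.40 to -0.17) in pericytes. In mural double cells and ICC the interval held 0.

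Tcf21 had a class order unlike that of the forkhead genes. Fgfr2 FB had 630 CPM (614 to 646) in LI and 557 CPM (537 to 577) in SI, above every other class in each library. Other FB had 423 and 363 CPM, Grem1 FB 230 and 255 CPM, and Pi16 FB 168 and 146 CPM. The lowest levels were in mural double cells, at 96.9 CPM (72.8 to 126) and 69.7 CPM (59.4 to 81.2), and in pericytes, at 163 and 105 CPM. PDGFRAhi FB had 321 CPM (300 to 343) in LI and 165 CPM (149 to 181) in SI, a log2 ratio of 0.96 (0.79 to 1.13), and ICC had 473 CPM (441 to 507) and 224 CPM (174 to 284), a log2 ratio of 1.08 (0.72 to 1.46). LI was higher in 8 of 9 classes, each with an interval clear of 0, and SI was higher in Grem1 FB alone (-0.15, -0.23 to -0.07). The direction was turned in male cells, with 150 CPM (136 to 165) in LI against 289 CPM (271 to 307) in SI other FB.

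Hand1 was the gene that set ICC apart most. In ICC it was at 223 CPM (201 to 246) in LI and 415 CPM (345 to 494) in SI, 30.4-fold and 150-fold above the other stromal cells, and SI was the higher (log2 ratio -0.89, -1.19 to -0.59). This held in female ICC, at 127 and 408 CPM, while the intervals overlapped in male ICC, at 514 and 504 CPM from 42 and 9 cells. SMC came next at 18.2 CPM (13.3 to 24.3) and 18.6 CPM (14.2 to 23.8), with a log2 ratio near 0 (-0.03). PDGFRAhi FB had 1 Hand1 UMI in LI and 0 in SI. In other FB the libraries differed, with 10.1 CPM (8.79 to 11.4) in LI and 1.38 CPM (0.841 to 2.13) in SI, and in Grem1 FB with 9.78 and 1.43 CPM. These 2 classes had log2 ratios of 2.22 (1.78 to 2.62) and 2.15 (1.62 to 2.63). The gap differed by sex: Hand1 was at 3.70 CPM in LI and 0.795 CPM in SI female other FB, and at 33.0 and 1.77 CPM in male ones. The 184 LI fibroblasts with a Hand1 UMI had Kit at 26.3 CPM (40 UMIs) against 2.17 CPM in the 7884 without one, Hand2 at 60.6 against 21.7 CPM, and Adamdec1 at 445 against 3165 CPM. Their Kit level was far under the 1173 CPM of the ICC class. The gates set this gap in part, since Kit is an ICC gate marker and cells that met the ICC gate could not be FB. In SI, 49 fibroblasts had a Hand1 UMI, and these had 1 Kit UMI.

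Hand2 was raised in ICC as well, at 78.4 CPM (65.6 to 93.0) in LI and 75.7 CPM (48.0 to 114) in SI, and the libraries did not differ there beyond counting error (log2 ratio 0.05, -0.59 to 0.75). In fibroblasts it was at 38.8 and 30.3 CPM in Grem1 FB and 23.5 and 31.8 CPM in other FB. It was lowest in PDGFRAhi FB of LI, at 6.66 CPM (3.95 to 10.5), where SI had 20.6 CPM (15.4 to 26.9), a log2 ratio of -1.49 (-2.23 to -0.77). SMC showed the same direction, 18.6 CPM in LI against 40.8 CPM in SI (-1.09, -1.58 to -0.62). Hand1 made up 74.0% (69.9 to 77.7) of the summed Hand1 and Hand2 UMIs in LI ICC and 84.6% (77.7 to 90.0) in SI ICC, 49.5% and 31.3% in SMC, and 13.9% and 2.22% in Fgfr2 FB. ICC were thus the only class of the 9 in which Hand1 had more than 50% of the UMIs of the pair. In LI, though, the intervals of SMC (38.9 to 60.0) and of mural double cells (41.2%, 18.4 to 67.1) held 50%.

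Hlx ranged over 6.55-fold between classes in LI and 3.18-fold in SI. In LI it was highest in ICC at 58.8 CPM (47.8 to 71.6), 2.70-fold above the other stromal cells, and the next 7 classes from SMC (24.9 CPM) to PDGFRAhi FB (9.62 CPM) each overlapped the next. In SI it was highest in SMC at 33.3 CPM (27.4 to 40.1), and ICC had 23.0 CPM from 7 UMIs (9.26 to 47.4). PDGFRAhi FB had 9.62 and 10.5 CPM, under the other stromal cells by a log2 of -1.20 and -1.05. In 7 of 9 classes the interval of the LI over SI ratio held 0, with ICC (1.32, 0.25 to 2.58) and Fgfr2 FB (0.55, 0.20 to 0.90) higher in LI.

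Isl1 was low in LI and lower in SI. In LI it was at 13.3 CPM (9.33 to 18.4) in PDGFRAhi FB and 8.97 CPM (7.18 to 11.1) in Fgfr2 FB, which overlapped, and between 3.52 and 4.65 CPM in Pi16 FB, Grem1 FB, other FB, pericytes and SMC, while ICC had 1 UMI and mural double cells 0. In SI the 9 classes together ranged from 0 to 1.26 CPM. No Isl1 UMI was found in SI PDGFRAhi FB, so that the LI level was at least 11.4-fold above the level that 3 UMIs would give there, and it was at least 6.63-fold higher in pericytes by the same measure. LI was higher with an interval clear of 0 in 6 of 9 classes. The highest Isl1 levels lay outside these classes, in the few mesothelial cells: 171 CPM (116 to 242) from 31 UMIs in LI and 31.2 CPM (14.3 to 59.3) from 9 UMIs in SI. At least 1 Isl1 UMI was found in 57.1% of the 28 LI and 21.7% of the 23 SI mesothelial cells. With so few cells, no comparison is drawn.

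Barx1 was close to 0 outside mural cells. Pericytes had 9.02 CPM (5.94 to 13.1) from 27 UMIs in LI and 3.33 CPM (1.97 to 5.26) from 18 UMIs in SI, and mural double cells had 3.59 and 5.13 CPM from 2 and 12 UMIs. All FB together had 17 UMIs in LI and 2 in SI (0.331 and 0.053 CPM). SMC had 0 and 2 UMIs, and ICC and mesothelial cells had 0 in both libraries. The pericyte level was higher in LI, with a log2 ratio of 1.21 (0.45 to 1.96), but it rests on these few UMIs, and in both libraries pericytes overlapped mural double cells.

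**Figure D2:**
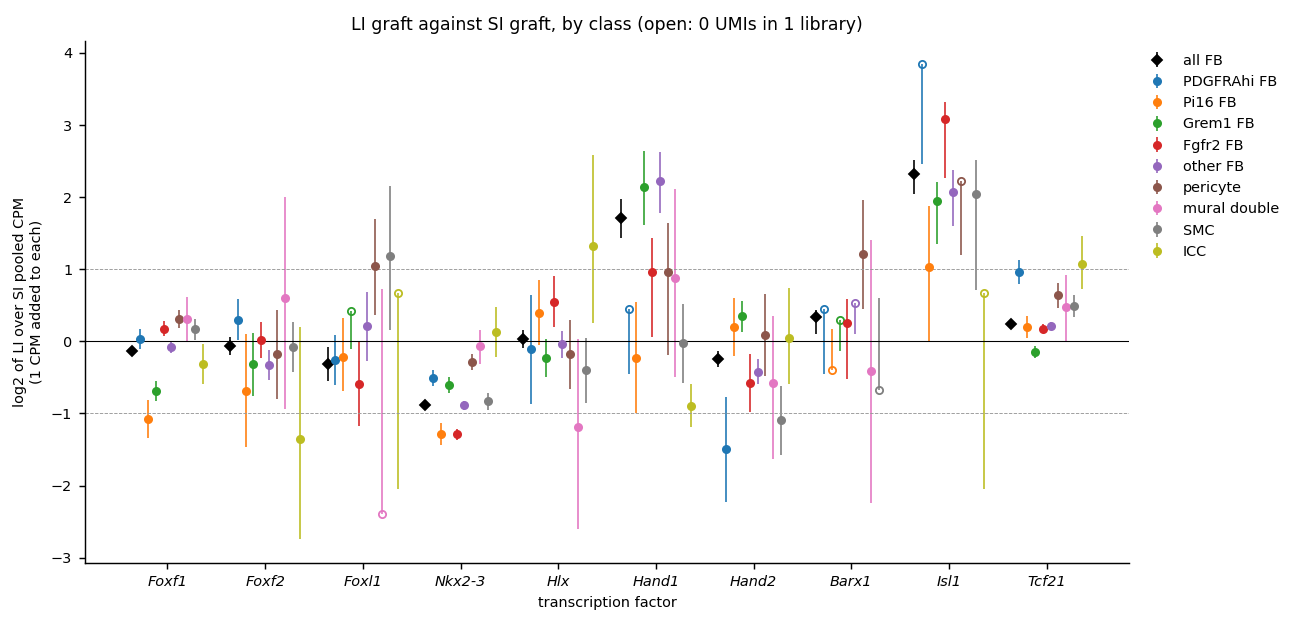
Log2 ratio of LI over SI pooled CPM (vertical axis, 1 CPM added to each level) for each transcription factor in all FB (black diamonds) and 9 classes (coloured points), with 95% intervals of counting error, open points where 1 library had 0 UMIs and no point where both had 0. Nkx2-3 lies below 0 in all FB at -0.89, Isl1 and Hand1 lie above 1 in all FB at 2.32 and 1.71, and Hand2 ranges from -1.49 to 0.35 between classes.

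Shares of cells followed the pooled levels once cells had been thinned to 2000 UMIs, which left out 507 LI and 338 SI fibroblasts of lower depth. Foxl1 had a UMI in 9.81% of thinned LI and 10.1% of thinned SI PDGFRAhi FB, against 22.5% and 24.9% before thinning. Hand1 had one in 23.7% of LI and 54.7% of SI ICC (35.0% and 73.7% before). Tcf21 reached 65.7% and 60.2% of Fgfr2 FB (86.2% and 85.9% before), and Nkx2-3 reached 35.0% and 58.2% of the same cells (64.4% and 84.5% before). As a measure of free RNA, cells that met an immune, endothelial, epithelial or kidney gate numbered 40 in LI and 61 in SI, with medians of 3419 and 8664 UMIs against 5350 and 5746 in stromal cells. In the thinned cells of these gates, 0 of 29 LI cells had Foxf1, Foxf2, Foxl1, Hand1, Hand2, Barx1, Isl1 or Tcf21, which allows a share of up to 10.3% (3 of 29 cells, or 11.9% as the upper end of the exact interval), and 0 of 50 SI cells had any of the genes but Isl1 and Tcf21, at 1 cell each, which allows up to 6% (3 of 50 cells, or 7.11%). Hlx had a UMI in 2 of the 29 LI cells (6.90%, 0.846 to 22.8), against 4.31% of LI fibroblasts, and in none of the 50 SI cells. Before thinning, the 7 Hlx UMIs of these LI cells sat in 3 cells of the endothelial and immune gates, and whether they were free RNA was not tested. Over the 9 classes, thinned shares of Barx1 and Isl1 lay under these limits in every class, those of Hand1 in every class but ICC, those of Foxl1 in every class but SI PDGFRAhi FB, and those of Hlx in every SI class. The share of Foxf1 was under the limit in LI Pi16 FB alone, at 7.02%. In LI the shares of Foxf2 were under the limit outside PDGFRAhi FB and those of Hand2 outside ICC, and in SI those of Foxf2 exceeded it in PDGFRAhi FB, Fgfr2 FB and SMC and those of Hand2 in other FB, SMC and ICC. By these few cells such shares could not be told from that background, though the share of Foxl1 in LI differed between classes, with 9.81% (7.16 to 13.0) in PDGFRAhi FB and 0.105% (0.00266 to 0.584) in Grem1 FB.

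**Figure D3:**
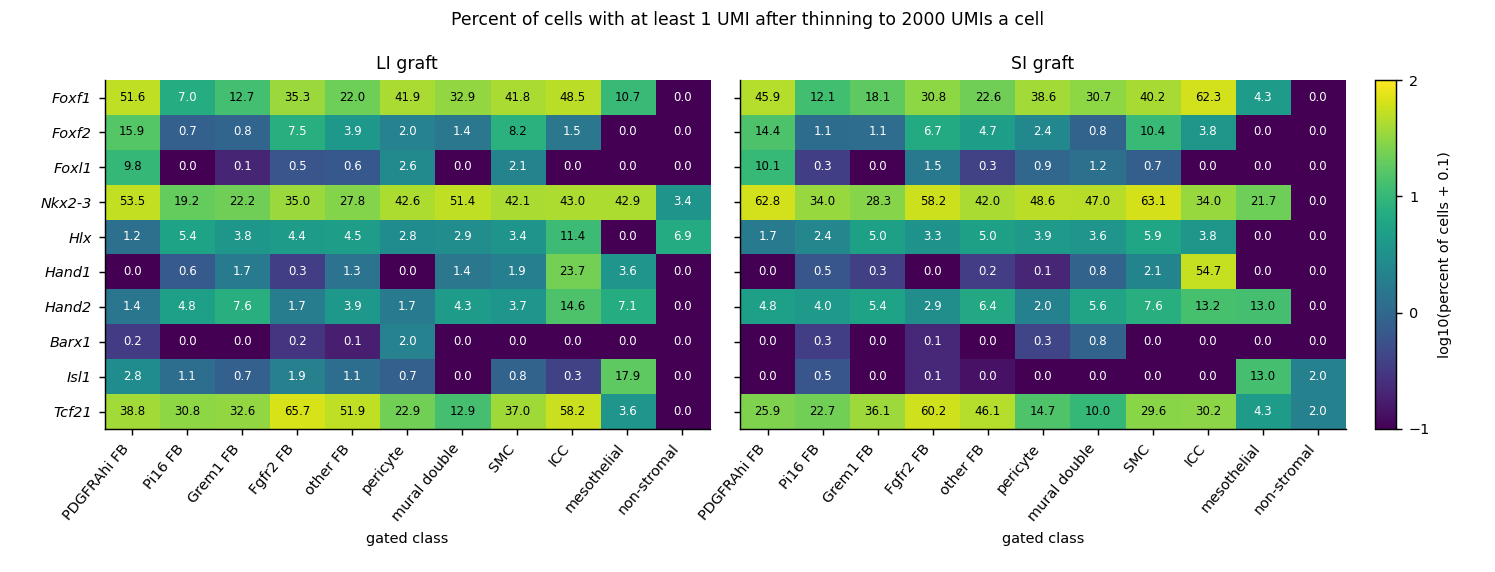
Percent of cells with at least 1 UMI of each transcription factor (rows) in each gated class and in cells of the non-stromal gates (columns), for the LI graft (left) and the SI graft (right), after thinning to 2000 UMIs a cell. Colour gives log10 of the percent plus 0.1, and Tcf21 (65.7% and 60.2% in Fgfr2 FB) and Nkx2-3 (53.5% and 62.8% in PDGFRAhi FB) are found in the most cells.

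Counted per cell, the factors were found together most often in ICC. At 2000 UMIs, ICC had on average 2.01 ± 1.06 (SD over 342 cells) of the 10 genes with a UMI in LI and 2.02 ± 1.08 (53 cells) in SI, and PDGFRAhi FB had 1.75 ± 1.06 (428 cells) and 1.66 ± 1.04 (355 cells). Pi16 FB had the fewest of the 9 classes, 0.697 ± 0.832 (812 cells) and 0.778 ± 0.762 (379 cells), and 50.2% and 40.6% of them had none of the 10. At least 3 were found in 30.7% of LI and 32.1% of SI ICC and in 3.08% and 1.85% of Pi16 FB. The SD is a spread over cells of 1 library and not an error between samples.

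Within PDGFRAhi FB, cells with and without the surface genes Cd9 and Thbd differed in some factors. In LI, Foxf1 was at 361 CPM (317 to 408) in the 106 cells with Cd9 only, 362 CPM (307 to 424) in the 80 with Thbd only and 332 CPM (302 to 365) in the 188 with both, which overlapped. Nkx2-3 was at 309 CPM (269 to 353) with Cd9 only and 463 CPM (401 to 533) with Thbd only in LI, and at 532 and 669 CPM in SI with overlapping intervals. Tcf21 was at 264 CPM (228 to 305) and 404 CPM (346 to 470) in LI, and in SI the order was turned, at 186 CPM (144 to 236) and 129 CPM (89.6 to 181), with overlap. The LI intervals of Nkx2-3 and Tcf21 did not overlap between Cd9 only and Thbd only. The 61 LI cells with neither gene had Nkx2-3 at 372 CPM (306 to 449) and Tcf21 at 413 CPM (343 to 494), and LI cells with both had 410 and 304 CPM. Only 16 SI cells had neither. In SI, Foxf2 was at 55.4 CPM (33.9 to 85.6) with Cd9 only and 118 CPM (80.1 to 167) with Thbd only, and Hand2 at 38.8 CPM (21.2 to 65.1) and 7.61 CPM (0.921 to 27.5), with overlap in both.

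The SMC and other FB classes were each mixed for Adamdec1, a gene of lamina propria fibroblasts. Foxf1, Foxf2, Nkx2-3, Tcf21, Hand1 and Hand2 divided along it in the same way in both libraries. Among LI SMC, the 259 cells with an Adamdec1 UMI had Foxf1 at 336 CPM (309 to 365), Foxf2 at 58.4 CPM (47.4 to 71.2) and Tcf21 at 362 CPM (334 to 392), and the 131 without had 192 CPM (164 to 224), 20.03 CPM (11.7 to 32.1) and 99.0 CPM (79.0 to 123). Nkx2-3 was at 358 CPM with and 240 CPM without it. Hand1 and Hand2 went the other way, 11.9 and 11.3 CPM with against 30.6 and 33.0 CPM without. Among SI SMC, Nkx2-3 was at 806 CPM (764 to 849) with and 301 CPM (274 to 329) without Adamdec1, Tcf21 at 304 and 71.0 CPM, Hand1 at 6.20 and 32.6 CPM and Hand2 at 24.2 and 59.5 CPM. All 17 and 8 Foxl1 UMIs of LI and SI SMC were in cells with Adamdec1. In other FB, Foxf2 was at 34.3 and 33.3 CPM with and 2.60 and 8.70 CPM without Adamdec1 in LI and SI. Nkx2-3 was at 206 and 365 CPM with and 124 and 226 CPM without it. Hand2 was at 13.3 and 18.6 CPM with and 31.9 and 46.4 CPM without it. Whether the Adamdec1 counts of SMC come from the same cells or from free RNA or doublets was not tested.

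**Figure D4:**
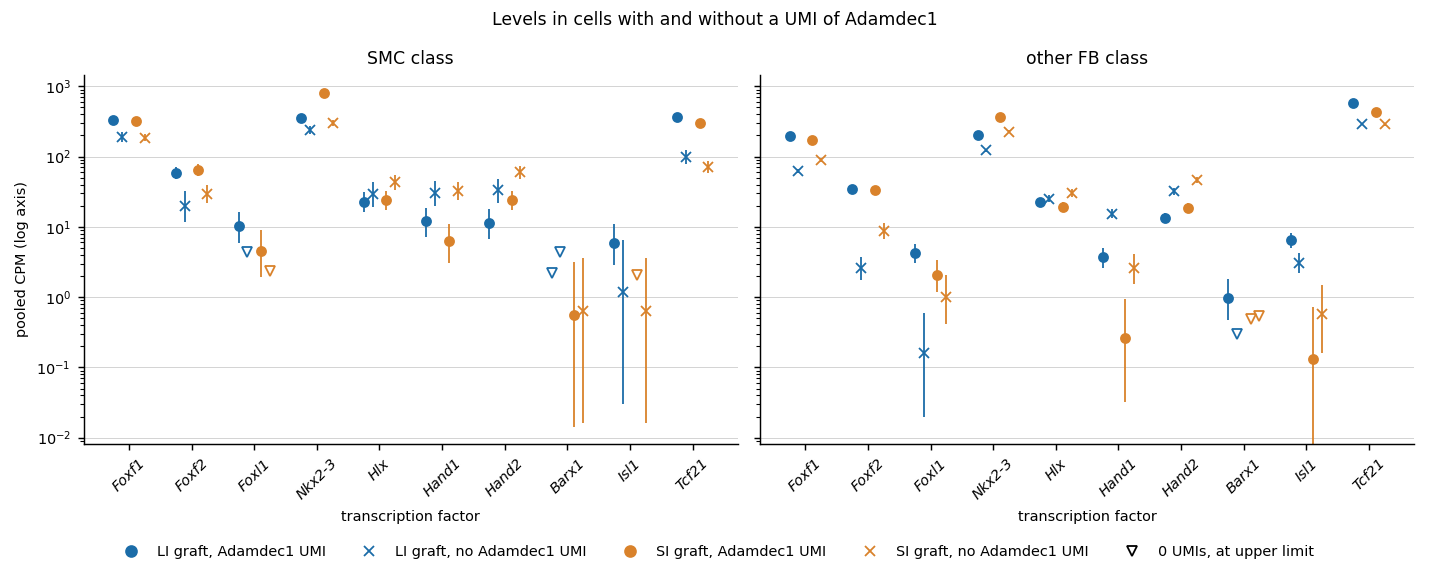
Pooled CPM (log axis) of the 10 transcription factors in SMC (left) and other FB (right) that had (circles) or lacked (crosses) a UMI of Adamdec1, in the LI (blue) and SI (orange) libraries, with exact Poisson 95% intervals and open triangles for 0 UMIs at the upper limit. Tcf21, Foxf2 and Foxf1 are higher with Adamdec1 in all 4 pairs, and Hand1 and Hand2 are higher without it in all 4.

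Both libraries held cells of both sexes, so each came from at least 2 embryos if all cells were graft cells. Host cells were not told apart, and 2 LI and 8 SI cells met the kidney tubule gate. Cells with a UMI of a Y-linked gene and none of Xist made up 9.004% of LI and 24.3% of SI cells, and cells with Xist and no Y-linked UMI 80.7% and 55.0%. In SI, Hand2 in FB was at 32.9 CPM in 3388 female and 22.0 CPM in 1346 male cells, Tcf21 at 358 and 270.0 CPM, and Hand1 at 1.36 and 1.31 CPM. In LI the gaps between the sexes were wider for these 3 genes. The 6555 female LI fibroblasts had Tcf21 at 453 CPM, Foxf1 at 143 CPM, Foxf2 at 23.7 CPM, Hand2 at 14.3 CPM and Hand1 at 2.92 CPM, and the 758 male ones had 133, 75.1, 7.40, 54.8 and 21.1 CPM. The LI over SI ratio of Hand2 was -1.15 (-1.30 to -0.99) in female and 1.28 (1.05 to 1.504) in male cells, that of Tcf21 0.34 and -1.01 (-1.12 to -0.91), and that of Foxf1 0.05 (-0.01 to 0.12) and -0.90 (-1.04 to -0.76). Those of Nkx2-3 (-0.76 and -1.29), Hand1 (0.73 and 3.26) and Isl1 (2.34 and 1.75) kept their direction.

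The shares of cells that met each fibroblast gate differed by sex too. In LI, Grem1 FB were 26.5% (23.6 to 29.6) of 861 male stromal cells and 7.34% (6.77 to 7.95) of 7710 female ones, and Fgfr2 FB were 8.83% and 18.4%. In SI, Grem1 FB were 24.7% (22.7 to 26.7) of 1838 male and 18.6% (17.4 to 19.8) of 4194 female ones, and other FB were 24.7% and 41.3%. Within other FB alone the differences were still seen, with Tcf21 at 487 CPM (476 to 497) in 3498 female and 150 CPM (136 to 165) in 346 male LI cells, Hand2 at 17.4 and 50.5 CPM and Hand1 at 3.70 and 33.0 CPM. In ICC, Hand1 was at 127 CPM (107 to 148) in 270 female and 514 CPM (428 to 612) in 42 male LI cells, and at 408 CPM (324 to 507) and 504 CPM (343 to 716) in the SI ones. All 36 Isl1 UMIs of LI PDGFRAhi FB came from female cells (15.3 CPM), but the 24 male cells were too few to show a difference, since their 0 UMIs allow up to 24.8 CPM. Male cells had a median of 8734 UMIs in LI fibroblasts against 5238 in female ones, and 7895.5 against 5428.5 in SI fibroblasts. A male call needs a Y-linked UMI. A gate needs several markers with a UMI, which deeper cells meet more easily, and LI Grem1 FB had a median of 8581 UMIs against 4787.5 in LI other FB. How far depth enters the class shares by sex was not tested. Male cells of 1 pool may stem from as little as 1 embryo or graft, so sex and embryo cannot be told apart.

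**Figure D5:**
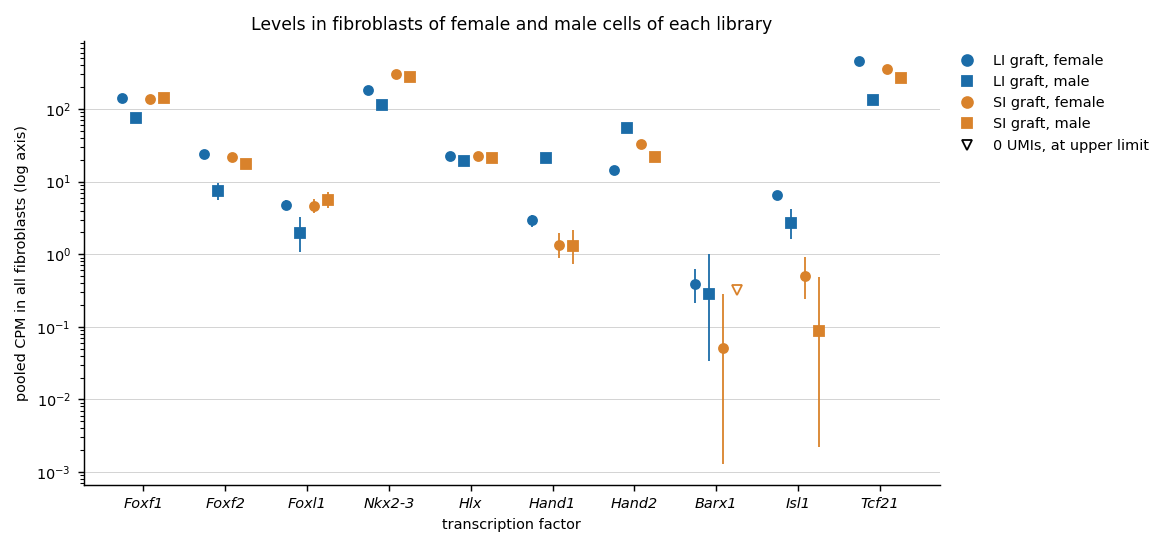
Pooled CPM in all FB (log axis) of the 10 transcription factors for female (circles) and male (squares) cells of the LI (blue) and SI (orange) libraries, with exact Poisson 95% intervals and an open triangle for 0 UMIs at the upper limit. Male LI cells are lower than female LI cells for Tcf21 (133 against 453 CPM) and higher for Hand2 (54.8 against 14.3 CPM) and Hand1 (21.1 against 2.92 CPM).

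Across the 18 class and library levels (9 classes in each library, of unequal depth and with shared marker genes), Foxf1 varied with Nkx2-3 at a Pearson r of 0.75 on the log2 scale, Foxf2 with Foxl1 at 0.70 and with Nkx2-3 at 0.66, Hand1 with Hand2 at 0.78 and Hand2 with Hlx at 0.66. Foxl1 and Hand2 went against each other (r = -0.62), as did Barx1 and Tcf21 (-0.62). Out of 10759 other genes with at least 10 CPM in 1 class, those most alike were Gm15261, As3mt and Chpt1 for Foxf1 (r from 0.96 to 0.93), Eva1a, Foxq1 and Col6a4 for Foxf2 (0.96 to 0.91), Msantd3, Zfp369 and Tcf7 for Foxl1 (0.90 to 0.89) and Gm20467, Adam10 and H2afv for Nkx2-3 (0.93 to 0.89). For Hlx they were Prrt1, Meis1 and Mpdz (0.86 to 0.84), for Hand1 Slc38a1, Osbpl3 and Bcl11a (0.94 to 0.90), for Hand2 Abca3, Pgpep1 and Tbc1d9 (0.88 to 0.86), for Barx1 Adamts9, Sstr2 and Stac (0.95 to 0.94), for Isl1 Hoxa13, Clec14a and Rpl36 (0.85 to 0.82) and for Tcf21 Ly6h, Atxn7l3b and Igsf3 (0.95 to 0.89). With 18 points and 10759 genes to choose from, such values are a description only.

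Some of these genes lie next to a member in the genome. Gm20467, a long noncoding RNA at chr19:43609077-43610625 on the minus strand, starts 1.70 kb from the start of Nkx2-3 and was at 17.0 CPM in LI and 30.3 CPM in SI PDGFRAhi FB, against 3.73 and 5.99 CPM in Pi16 FB. Foxq1, a forkhead gene at chr13:31556134-31560976, starts 69.7 kb from Foxf2 and was at 52.2 CPM in LI and 15.9 CPM in SI PDGFRAhi FB, with 29.7 CPM in SI SMC and 0.133 CPM in LI Pi16 FB. Fendrr, a long noncoding RNA at chr8:121054882-121083110 on the minus strand, starts 1276 bases from Foxf1 and points away from it. It was not among the 3 genes most alike to Foxf1, but its levels had an r of 0.90 with those of Foxf1 over the 18 points, at 98.4 and 83.4 CPM in PDGFRAhi FB, 95.01 and 155 CPM in ICC and 9.86 and 12.6 CPM in Pi16 FB. Mthfsd, which starts 24.0 kb from Foxf1, had an r of 0.73 with it, Foxl1, at 43.6 kb, one of 0.51, and Foxc2, which lies between Foxf1 and Foxl1, one of -0.05. The annotated gene spans named here did not overlap, and reads shared between neighbours were not tested.

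Other genes of the same field gave the setting for these values. Of 31 further transcription factors of gut mesenchyme, 26 reached 10 CPM in FB, 4 of which were higher in LI by a log2 of at least 1 and 0 higher in SI. Of all 8616 genes at that level, 1.94% were past it towards LI and 1.59% towards SI. The 4 factors were Pitx1, a hindgut and hindlimb factor (143 CPM in LI and 10.3 CPM in SI FB, log2 ratio 3.67), Prrx1 (101 and 27.2 CPM, 1.86), Ebf1 (174 and 80.6 CPM, 1.10) and Zfhx4 (88.1 and 43.2 CPM, 1.01). The median over the 26 was 0.21. All ratios of these lists pool both sexes. Of 8 genes of the hedgehog pathway, which drives the Foxf genes in gut mesenchyme, 7 reached 10 CPM and 0 differed by that much, with Gli1 at 14.1 and 14.9 CPM and Ptch1 at 123 and 106 CPM. Of 9 close relatives of the 10 factors, 2 reached 10 CPM: Isl2, the paralogue of Isl1, was higher in SI (5.21 and 14.0 CPM, log2 ratio -1.28), opposite to Isl1, and Msc, a relative of Tcf21, was at 19.8 and 32.8 CPM. Nkx2-5 and Nkx2-6 had 0 UMIs in FB of both libraries. Of 5 genes taken as candidates downstream of these factors, 4 reached 10 CPM. Sfrp2, a secreted Wnt modulator, was at 94.2 CPM in LI and 8.19 CPM in SI (3.37), and its relative Sfrp1 at 995 and 2213 CPM (-1.15). Bmp4 was at 286 and 232 CPM and Wnt5a at 67.1 and 95.9 CPM. The 5 neighbours of Foxf1 and Foxf2 included 2 at 10 CPM, Fendrr and Mthfsd, and neither was past a log2 of 1 (0.01 and -0.07).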

How the data were processed

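The authors aligned the reads to mm10 with Cell Ranger (3.1.0 per the labels) and deposited, for each library, raw counts of UMIs per gene and barcode with no normalization. The labels also name Seurat 3, of which no output was used here. The annotation release was not given in the sources used here. Feature symbols and barcodes were used as they were deposited; 58 symbols occur more than once, none of them a member.

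Total depth was 63348069 UMIs in 11568 LI barcodes and 54918006 UMIs in 9631 SI barcodes. Cells with under 500 genes or over 10% of UMIs from mitochondrial genes were dropped. Classes came from marker lists by the number of markers with a UMI: 5 of 8 for PDGFRAhi FB, 3 of 6 for Pi16 FB, 4 of 6 for Grem1 FB, 3 of 5 for Fgfr2 FB, 5 of 8 for FB, 5 of 10 for pericytes, 7 of 10 for SMC, 3 of 5 for ICC and 4 of 8 for mesothelial cells, and from 2 to 4 for other lineages. FB that met several subset gates went to the one with the larger share of its markers, and 361 LI and 317 SI cells stayed unassigned. No doublets were removed in the main values. Scrublet in scanpy 1.11.5 called 0 and 1 barcodes by its own threshold and so did not work, and the 1071 LI and 742 SI barcodes with the highest scores were left out as an alternative.

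UMIs were summed by class and scaled to the class total (CPM). Levels carry exact Poisson, shares exact Clopper-Pearson and ratios exact binomial intervals, at 95%. With 1 library a group and cells as no replicates, nothing was tested and p-values are not given. A gene at 0 was bounded at 3 UMIs of the library. Genes were counted between libraries from 10 CPM in FB. The ratio code was tested on simulated data. The members and lists were chosen with earlier results of these data known, and the gate thresholds after the counts of markers had been seen. Named genes were all members, list genes at 10 CPM and a log2 of at least 1, and the 3 genes most alike to each member without gate markers and members; others named were chosen after their values were seen. Alternatives were other cell filters, doublet removal, Louvain classes (Seurat 5.3.0, R 4.3.3), stricter gates, per-cell means, pseudocounts, TMM scaling (edgeR 4.0.16), 1 sex, other thinning and a lower minimum level. Python 3.11.15, numpy 2.4.6, scipy 1.17.1 and pandas 2.3.3 were used.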

Additional observations from a re-analysis of the deposited data

Results flagged for a closer look

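Nkx2-3 in ICC moved in opposite directions in the 2 libraries. Set against the other stromal cells of the same library, its log2 ratio was 0.65 (0.52 to 0.78) in LI and -0.34 (-0.68 to -0.03) in SI. The difference was not tested, since each library is 1 sample. The ICC level itself was 287 CPM in LI and 263 CPM in SI, and the level in all stromal cells was 185 and 334 CPM.

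A signal was seen in cells outside the stromal gates for a pair of genes. Hlx had 7 UMIs in the 40 non-stromal LI cells, 5 of them in 2 cells of the endothelial gate and 2 in 1 cell of the immune gate. Isl1 had 10 UMIs in the 61 non-stromal SI cells, and these were in 1 of the 34 cells of the epithelial gate. Both counts are above the 3 UMIs taken as the limit of a count of 0.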

How the results depend on the processing

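No paired analysis was possible because each group is 1 library and the labels give no replicate numbers. For the same reason no replicate could be left out. The alternatives were planned and 0 were added. Over 30 log2 ratios and their alternatives, 277 values were computed, of which 204 stayed within the interval of the value given, 64 lay outside it with the same sign and 7 changed the sign of a value whose interval was clear of 0. A further 2 lay outside it with the other sign, for values whose interval held 0: Foxf2 with female cells (0.11) and Hlx with male cells (-0.13). With female cells only, the LI over SI ratio in FB was 0.0512 for Foxf1 and 0.0448 for Foxl1, and with the mean of per-cell CPM it was 0.0439 for Foxf1. With male cells only it was 1.28 for Hand2 and -1.01 for Tcf21, and in LI the ratio over other stromal cells was -0.34 (up to 3.03) for Barx1 in pericytes and -1.90 (up to 2.85) for Isl1 in PDGFRAhi FB. The last 2 come from 0 UMIs in few cells and their intervals hold the values given. For the others the cause was not tested. The number of members higher in LI fibroblasts, 2, was 1 with Louvain classes and 4 with female cells, with per-cell means and with a minimum of 1 CPM. The number higher in SI, 4, was 2 with female cells and with per-cell means and 5 with male cells, with Louvain classes and with a minimum of 1 CPM. The number with the same leading class, 5, was between 5 and 7. Shares of cells depend on depth by construction: in LI fibroblasts Tcf21 had a UMI in 49.3% of cells at 2000 UMIs, 31.1% at 1000 and 71.0% without thinning. TMM factors were 0.999 and 1.001. With Louvain classes 4 classes could be compared, as SI ICC had 38 cells, Fgfr2 FB and Pi16 FB were named in LI only, Grem1 FB in SI only and mural double in neither, and with male cells 4 had 50 cells. ICC of SI, with 57 cells, and genes under 10 CPM have wide intervals.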
